A study of Mus musculus with 16 samples.

Results

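The mitochondrial genome of the mouse holds 37 annotated genes, of which 13 encode proteins, 2 encode rRNAs and 22 encode tRNAs. They were taken as all genes whose mouse symbol starts with mt-, and matched by Ensembl gene ID to the tables of the series. All 37 were found among the 30325 genes of the gonadal table, and 36 among the 30946 genes of the subcutaneous table, where mt-Tf was not listed. The 8 libraries per depot came from mice without a working Lcn2 gene, all female, of the strain B6.129P2-Lcn2tm1Aade/AkiJ on a C57BL/6J background. Adeno-associated virus AAV8 carrying LCN2 was compared with the same vector carrying GFP, in gonadal fat (4 LCN2 and 4 GFP samples) and in subcutaneous fat (4 LCN2 and 4 GFP samples). The mice were injected into a vein at 8 weeks of age and kept on a high-fat, high-sucrose diet (HF/HS, D12266B) to 16 weeks. All 4 groups share the Lcn2-null allele, the vector and the diet, so no group is wild type, free of virus or on a standard diet. The adiponectin promoter drives both transgenes in fat cells, and a target site for microRNA122 leads to loss of the transcript in liver. Lcn2, the transgene, had 186, 189, 522 and 481 normalized counts in LCN2 gonadal fat, against 103, 62.1, 70.0 and 89.5 in GFP gonadal fat. Its groups did not overlap in either depot, with log2 differences of 1.93 ± 0.37 in gonadal and 0.95 ± 0.29 in subcutaneous fat (SE) and limma adjusted p of 0.108 and 0.308.

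Mitochondrial DNA is copied and transcribed inside the organelle, from promoters on each strand. The long transcripts are cut largely at tRNAs that lie between the protein and rRNA genes, and most messages then receive a short poly(A) tail. The proteins are core subunits of the respiratory chain and ATP synthase, which work in complexes with many proteins encoded in the nucleus. The rRNAs form the organelle's own ribosome. White fat cells hold few mitochondria, and brown or beige fat cells, which burn fuel for heat, hold many.

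Of the protein genes, 7 encode subunits of complex I (NADH dehydrogenase), 1 of complex III, 3 of complex IV (cytochrome c oxidase) and 2 of complex V (ATP synthase). The genes are packed without introns, and 16 of the 37 share at least 1 base with another of the set on the GRCm38 annotation. mt-Atp8 and mt-Atp6 share 43 bases on the same strand. A read in those bases belongs to both. mt-Nd5 and mt-Nd6 share 14 bases on opposite strands, and mt-Co1 and mt-Ts1 share 3 on opposite strands. Sequences of 8 genes are shown because values described here turn on their size, overlap or place between larger genes. They are the annotated transcripts of GENCODE M21 on GRCm38, given in the sense of the gene, with capitals for the bases shared with a neighbouring gene.
mt-Atp8, MT:7766-7969, plus strand, capitals shared with mt-Atp6: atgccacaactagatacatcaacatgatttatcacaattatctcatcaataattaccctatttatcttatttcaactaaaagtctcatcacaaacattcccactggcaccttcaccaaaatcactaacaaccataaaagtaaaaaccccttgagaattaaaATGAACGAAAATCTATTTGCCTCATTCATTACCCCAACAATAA
mt-Ts1 (serine), MT:6870-6938, minus strand, capitals shared with mt-Co1: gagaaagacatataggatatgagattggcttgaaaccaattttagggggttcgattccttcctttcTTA
mt-Te (glutamate), MT:14071-14139, minus strand: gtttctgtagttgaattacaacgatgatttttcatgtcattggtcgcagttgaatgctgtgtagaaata
mt-Tc (cysteine), MT:5192-5257, minus strand: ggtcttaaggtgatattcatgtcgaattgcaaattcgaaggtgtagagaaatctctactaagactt
mt-Tn (asparagine), MT:5089-5159, minus strand: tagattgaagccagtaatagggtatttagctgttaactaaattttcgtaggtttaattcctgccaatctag
mt-Ty (tyrosine), MT:5260-5326, minus strand: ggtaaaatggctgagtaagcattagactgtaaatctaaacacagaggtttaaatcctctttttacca
mt-Tl1 (leucine), MT:2676-2750, plus strand: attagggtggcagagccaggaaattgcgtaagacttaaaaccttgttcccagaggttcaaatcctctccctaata
mt-Tg (glycine), MT:9391-9458, plus strand: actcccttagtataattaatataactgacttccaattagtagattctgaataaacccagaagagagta

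The 5 tRNA genes mt-Ts1, mt-Te, mt-Tc, mt-Tn and mt-Ty held almost all tRNA reads and lie on the minus strand, opposite to all protein genes but mt-Nd6. mt-Tl1 starts on the base after mt-Rnr2 ends, and mt-Tg lies between mt-Co3 and mt-Nd3. Of the 13 protein transcripts, 10 end in a complete stop codon. The other 3, mt-Co3, mt-Nd4 and mt-Cytb, end in a lone T, which the poly(A) tail is known to complete to a stop codon. mt-Nd6, the minus-strand protein gene, held 28.1% G and 5.97% C in its transcript. The plus-strand protein transcripts all held more C than G, as in mt-Nd2 with 8.00% G and 27.7% C.

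The gonadal values are read counts that had been divided by a size factor per sample (normalized counts), and reads per sample were recovered from them as whole numbers. Reads counted over all genes summed to between 35173260 and 42890102 per library, and reads counted for no gene are not in these sums. With this sum as the size of the library, 3 reads equal 0.0699 to 0.0853 CPM (counts scaled to the size of the library). The subcutaneous values are rlog, a log2 scale that draws low genes towards their mean, and their depth is unknown. Markers of white fat cells were abundant in every sample, with a summed level of 32871 to 39804 CPM in LCN2 and 31893 to 44338 CPM in GFP gonadal fat. Muscle markers reached 1806 CPM in LCN2 replicate 4 and at most 184 CPM in the other gonadal samples. In subcutaneous fat the median rlog of lymph node markers was 8.75 in LCN2 replicate 4 and 5.65 to 5.85 in the other LCN2 samples. It was 10.2 and 9.18 in GFP replicates 1 and 2, and 5.73 and 5.75 in GFP replicates 3 and 4.

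In gonadal fat the share of all counted reads held by the 37 genes was between 6.51 and 10.0%. Reads counted for nuclear copies of these genes, described below, are not in it. The share did not separate LCN2 from GFP. It was 10.0, 7.35, 8.68 and 6.51% in LCN2 samples, against 8.77, 8.67, 9.01 and 6.74% in GFP samples. LCN2 replicate 1 was highest, LCN2 replicate 4 and GFP replicate 4 were lowest, and the groups overlapped. The means were 8.14 ± 1.53% in LCN2 and 8.30 ± 1.05% in GFP (SD, n = 4 each). Counting error was far smaller than the spread, with Wilson 95% intervals no wider than ±0.00931 percentage points. Those intervals cover counting error only, since PCR reads are not independent molecules. A share of RNA from bulk tissue cannot tell fewer cells of a type from less RNA per cell.

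**Figure D1:**
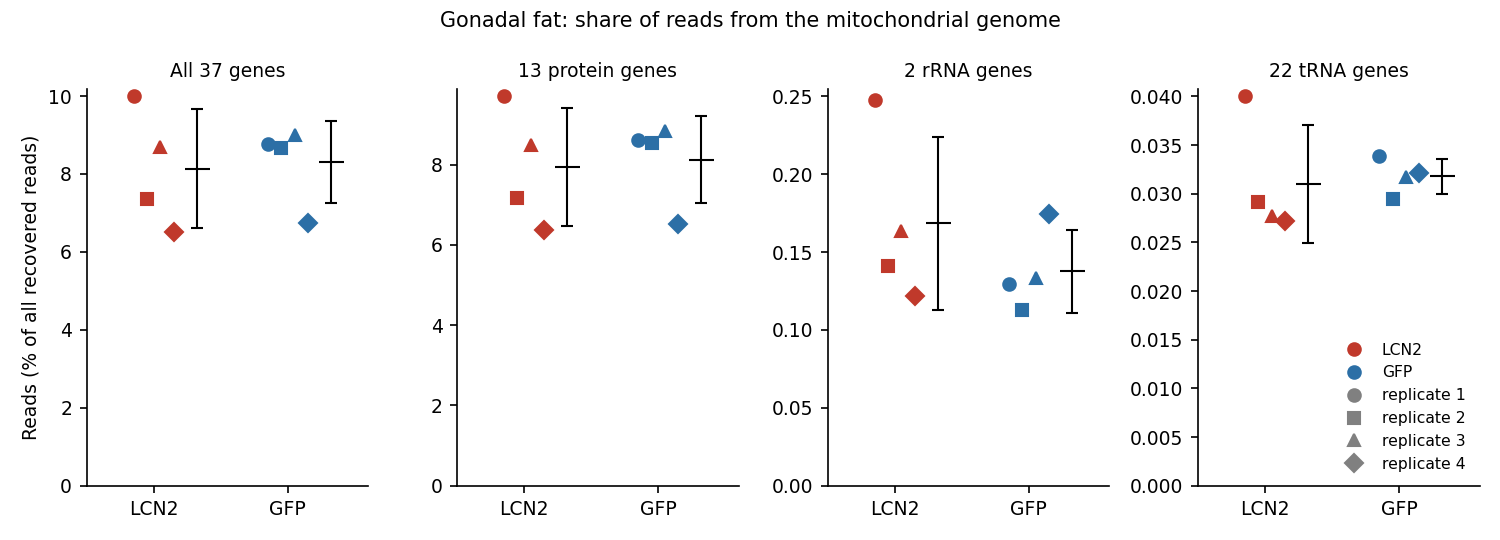
Percent of all recovered reads of each gonadal library (y axis, starting at 0) that were counted for all 37 genes and for the protein, rRNA and tRNA classes, in LCN2 and GFP samples. Points are samples with a symbol per replicate, and black bars are the mean and SD of 4; the LCN2 and GFP points overlap in all 4 panels, with LCN2 replicate 1 highest in each.

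Protein genes took nearly all of these reads. They held 7.94 ± 1.48% of all reads in LCN2 and 8.13 ± 1.07% in GFP gonadal fat. The rRNA genes held 0.168 ± 0.0556% in LCN2 and 0.138 ± 0.0264% in GFP, and the tRNA genes 0.0310 ± 0.00605% in LCN2 and 0.0318 ± 0.00182% in GFP (SD, n = 4 each). The library kit selects poly(A) RNA, so these shares do not give the amounts of rRNA and tRNA in the cells. By complex, the complex I genes held 2.94 ± 0.479% in LCN2 and 2.90 ± 0.462% in GFP, and the complex IV genes 3.27 ± 0.611% in LCN2 and 3.40 ± 0.341% in GFP. mt-Cytb, the complex III gene, held 0.857 ± 0.197% in LCN2 and 0.884 ± 0.150% in GFP, and the complex V pair 0.867 ± 0.199% in LCN2 and 0.945 ± 0.133% in GFP. The groups overlapped for each of these shares. Of the 20 genes with the most gonadal reads, 6 were mitochondrial protein genes, and of the 50 with the most reads, 10 were.

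Levels per length differed several-fold between protein genes, including those on the same strand. In RPKM, the reads per kilobase of gene scaled to the size of the library, mt-Co1, the catalytic core of complex IV, averaged 13899 ± 1798 over the 8 gonadal samples (SD). mt-Atp6, the proton channel subunit of ATP synthase, followed at 12715 ± 2261. mt-Co2 averaged 8266, mt-Co3 7936, mt-Cytb 7608 and mt-Nd4 7255. The remaining complex I genes were lower, with mt-Nd2 at 4925, mt-Nd1 at 4842, mt-Nd4l at 3642, mt-Nd6 at 3500, mt-Nd5 at 3156 and mt-Nd3 at 2345. mt-Atp8, the small membrane subunit of ATP synthase that shares its end with mt-Atp6, was lowest at 1972 ± 411. Of its 204 bases 43 are shared with mt-Atp6, and how reads in shared bases were counted is not given. The levels and places of short genes with shared bases, mt-Atp8 and mt-Nd4l among them, are uncertain to that extent. The order was the same in 8 of 8 samples for 7 of the 12 neighbouring pairs. mt-Co2 over mt-Co3 and mt-Co3 over mt-Cytb held in 7 samples, and mt-Cytb over mt-Nd4, mt-Nd2 over mt-Nd1 and mt-Nd4l over mt-Nd6 in 6, so those neighbours were not separated by their spread.

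The rRNA genes lay below every protein gene on this scale. mt-Rnr2, the large-subunit rRNA, averaged 661 ± 173 and mt-Rnr1, the small-subunit rRNA, 506 ± 177 RPKM. Among tRNA genes mt-Ts1 averaged 2025 ± 305 and mt-Te 1442 ± 168, levels per length above those of both rRNAs. mt-Tc at 419, mt-Tn at 284 and mt-Ty at 279 came next, and no other tRNA gene passed 25.1. mt-Te ends on the base before mt-Nd6 starts, on the same strand, and mt-Ts1 overlaps the end of mt-Co1 on the other strand. Reads of short genes that touch a longer one cannot be assigned to the tRNA itself, because the sources used here do not give the counting or its strand setting.

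**Figure D2:**
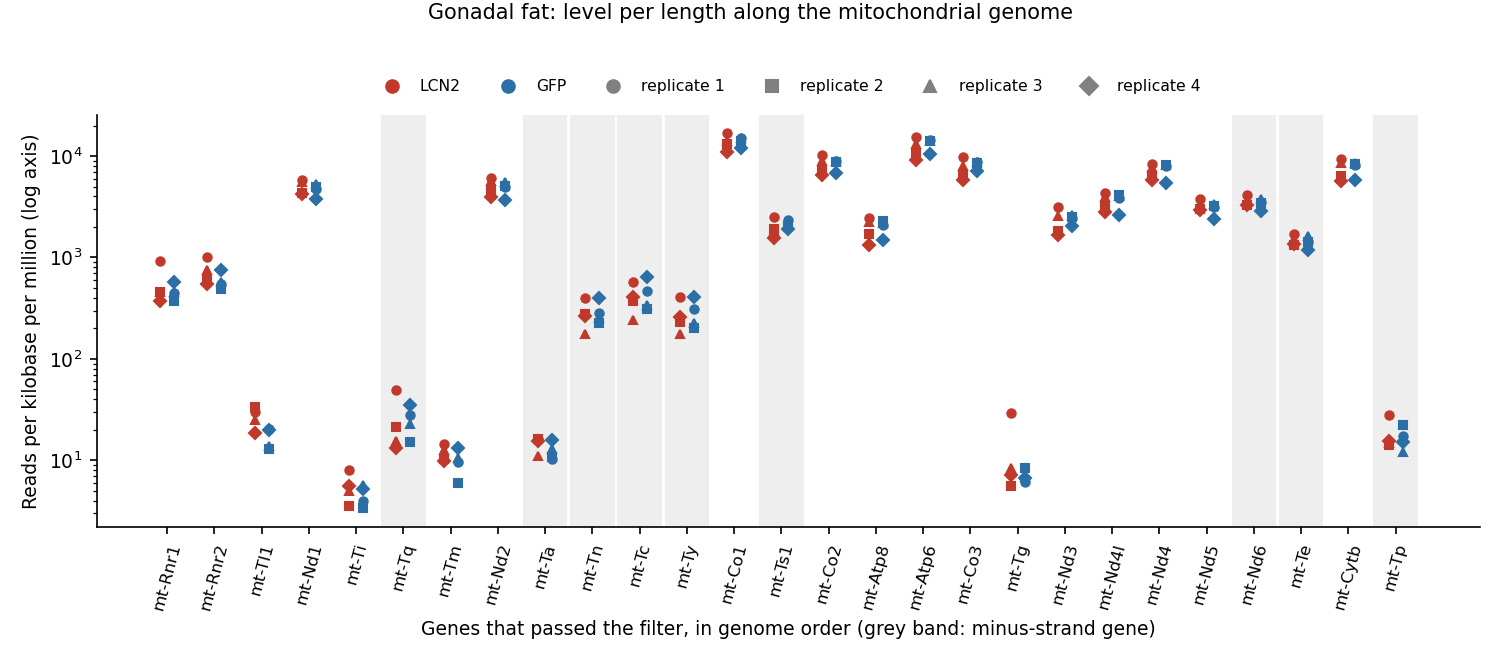
RPKM (reads per kilobase, scaled to library size; y axis, log scale) of the 27 genes that passed the gonadal filter, in genome order (x axis), for each LCN2 sample (left in each column) and GFP sample (right). Grey bands mark minus-strand genes; mt-Co1 and mt-Atp6 are highest, both rRNAs lie below every protein gene, and mt-Ts1 and mt-Te are the highest tRNA genes.

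Each gene was compared between LCN2 and GFP samples, in 1 fit over all genes of each table. In gonadal fat 27 of the 37 genes reached a mean of 10 normalized counts and were tested, namely all protein and rRNA genes and 12 tRNA genes. None of the 27 passed an adjusted p of 0.05 with limma, where 0.102% of all 19536 genes did. None passed with edgeR, which called 0.0358% of all genes, or with DESeq2, which called 4.19%. At an unadjusted p under 0.05, limma, edgeR and DESeq2 each had 1 of the 27, against 14.8% of all genes with limma, 14.9% with edgeR and 16.3% with DESeq2. LCN2 and GFP samples overlapped for all 27, against 9.11% of all genes whose groups did not overlap. The labels do not say that each of the 4 samples per group came from its own mouse, so the p-values cover only the spread among these 8 libraries, which may be technical.

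The 13 protein genes differed little between the gonadal groups, and all their intervals held 0. The median difference, LCN2 minus GFP on the log2(normalized count + 1) scale, was -0.04, beside 0.01 over all genes tested. The differences lay between -0.15 and 0.11 with 4 positive and 9 negative, where 52.0% of all genes were positive and 48.0% negative. Adjusted p (limma, Benjamini-Hochberg) was between 0.872 and 0.998. The widest interval was that of mt-Co1, from -1.03 to 0.95, so differences of up to about that size were not detectable there. For mt-Co1 limma's SE of 0.44, drawn towards that of other very abundant genes, was larger than the SE of 0.20 from its own 8 values. The median moved between -0.23 and 0.10 when 1 sample was left out at a time.

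mt-Co1 had 984183, 747086, 859703 and 624836 normalized counts in LCN2 gonadal samples, against 893121, 862077, 943790 and 608156 in GFP samples. The highest value was in LCN2 replicate 1 and the lowest in GFP replicate 4, so the GFP samples lay within the LCN2 range at all but the low end. Its difference was -0.04 ± 0.44 (SE), with a limma adjusted p of 0.980. mt-Co3, a complex IV subunit, had the most negative difference of the protein genes. It had 295005, 193022, 246908 and 167663 normalized counts in LCN2 samples, against 263336, 265139, 276737 and 182977 in GFP samples. GFP replicates 1 to 3 were close together, and LCN2 replicates 1 and 4 lay outside the GFP range on either side. The difference was -0.15 ± 0.29.

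mt-Nd5, a proton-pumping subunit of complex I, had the most positive difference of the protein genes in both depots. Its gonadal normalized counts were 264102, 200601, 240297 and 196831 in LCN2 samples, against 221811, 233533, 251254 and 142714 in GFP samples. The groups overlapped, with GFP replicate 4 lowest, and the difference was 0.11 ± 0.28. As a share of all protein gene reads, mt-Nd5 held 7.56 ± 0.629% in LCN2 and 6.85 ± 0.147% in GFP (SD, n = 4 each). Its lowest LCN2 share was 7.10% and its highest GFP share 7.01%, so the groups did not overlap on that scale. This was 1 of 13 such shares, picked out after its values were seen, and it was not tested.

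mt-Nd6, a complex I subunit and the only protein gene on the minus strand, had 82342, 62892, 75382 and 62035 normalized counts in LCN2, against 70576, 71369, 79657 and 47882 in GFP. GFP replicate 4 was again lowest, LCN2 replicate 1 highest, and the difference was 0.08 ± 0.20. mt-Atp8 had 19053, 12949, 18346 and 9921 normalized counts in LCN2, against 16263, 18300, 18185 and 9796 in GFP. Replicate 4 was the lowest of either group, and the difference was -0.06 ± 0.27.

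The other complex I genes had differences of 0.09 ± 0.27 for mt-Nd1, 0.08 ± 0.30 for mt-Nd2 and -0.09 ± 0.25 for mt-Nd3. The difference of mt-Nd4l was -0.0030 ± 0.25 and that of mt-Nd4 -0.05 ± 0.35. mt-Cytb, the cytochrome b of complex III, stood at -0.05 ± 0.35, mt-Co2, which receives electrons from cytochrome c, at -0.03 ± 0.29, and mt-Atp6 at -0.13 ± 0.34 (SE, log2 scale).

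The rRNA genes had positive differences in gonadal fat, within the spread between samples. mt-Rnr1 had 33348, 16129, 17371 and 12996 normalized counts in LCN2 samples, against 16295, 14056, 17582 and 17831 in GFP samples. mt-Rnr2 had 61131, 35886, 47754 and 31584 in LCN2, against 33449, 30382, 36419 and 38868 in GFP. LCN2 replicate 1 was highest for both rRNAs, and LCN2 replicate 3 was also above all GFP samples for mt-Rnr2. LCN2 replicate 4 was below all GFP samples for mt-Rnr1, and the remaining values of LCN2 samples lay within the GFP range. The differences were 0.19 ± 0.26 for mt-Rnr1 and 0.30 ± 0.21 for mt-Rnr2 (SE), with limma adjusted p of 0.793 and 0.568. Without LCN2 replicate 1 the difference of mt-Rnr1 was -0.09 and that of mt-Rnr2 0.13.

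Set against the protein genes, there were 2.55, 1.96, 1.92 and 1.91 rRNA reads per 100 protein gene reads in LCN2 gonadal samples. The GFP samples had 1.51, 1.32, 1.51 and 2.68. GFP replicates 1 to 3 were below all LCN2 samples and GFP replicate 4 was above them. The number of mt-Rnr2 reads per mt-Rnr1 read was 1.83, 2.22, 2.75 and 2.43 in LCN2, against a narrower 2.05, 2.16, 2.07 and 2.18 in GFP. These ratios also overlapped.

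Of the tRNA genes, 12 passed the gonadal filter, with 7 positive and 5 negative differences. mt-Tl1, a leucine tRNA gene, had the largest difference of all 27 genes tested. Its normalized counts were 85.3, 92.8, 74.8 and 51.2 in LCN2 samples, against 59.1, 38.7, 42.4 and 48.1 in GFP samples. LCN2 replicate 4 lay below GFP replicate 1, so the groups overlapped. The difference was 0.66 ± 0.23, with an unadjusted p of 0.0168 and a limma adjusted p of 0.229, over between 38 and 96 reads per library. Other settings gave mt-Tl1 adjusted p-values between 0.119 and 0.513.

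mt-Ts1 had 6660, 4897, 5023 and 3923 normalized counts in LCN2, against 6229, 5526, 5777 and 4308 in GFP, a difference of -0.10 ± 0.17. mt-Te had 4489, 3357, 4152 and 3467 in LCN2, against 3725, 3866, 4535 and 2644 in GFP, a difference of 0.08 ± 0.17. Both sets of values overlapped. GFP replicate 4 was lowest for mt-Te, as for its neighbour mt-Nd6 and for 10 of the 13 protein genes. The highest sample was GFP replicate 3 for mt-Te and LCN2 replicate 1 for mt-Nd6. The differences of the remaining tRNA genes were 0.52 ± 0.48 for mt-Tg, 0.31 ± 0.26 for mt-Tm, 0.25 ± 0.19 for mt-Ta, 0.25 ± 0.32 for mt-Ti and 0.11 ± 0.29 for mt-Tp. Without LCN2 replicate 1, which had 76.4 normalized counts, the difference of mt-Tg was 0.010, and with all samples it was 0.87 with edgeR and with DESeq2. Those of mt-Tn, mt-Ty, mt-Tc and mt-Tq were -0.07 ± 0.22, -0.11 ± 0.25, -0.14 ± 0.25 and -0.15 ± 0.40 (SE).

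The minus-strand tRNA genes held 98.4 ± 0.215% of all tRNA reads in LCN2 and 98.9 ± 0.0935% in GFP gonadal fat (SD, n = 4 each). It was 98.1, 98.4, 98.5 and 98.6% in LCN2 samples and at least 98.8% in each GFP sample. The groups did not overlap, in a ratio picked out after its values were seen and not tested. The remaining tRNA reads, on plus-strand genes, were 0.000505 ± 0.000172% of all reads in LCN2 and 0.000357 ± 4.45e-05% in GFP. LCN2 replicate 1 was highest in that share at 0.000758%, with 0.000375 to 0.000461% in the other LCN2 samples and 0.000294 to 0.000393% in GFP samples, and these shares overlapped. The 10 tRNA genes under the filter had from 2 reads, for mt-Tf, to 71 reads, for mt-Th, in all 8 libraries together. mt-Tf was at 0 reads in 6 libraries, mt-Tk in 5 and mt-Tv in 4, which allows up to 3 reads in each of those libraries.

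Most of the variation in gonadal fat lay between samples of the same group and ran through the protein genes together. LCN2 replicate 1 was the highest of the 8 samples for 11 of 13 protein genes, both rRNA genes and 10 of 12 tRNA genes. GFP replicate 4 was the lowest for 10 protein genes and LCN2 replicate 4 for the other 3. The median deviation of the protein genes from their mean over 8 samples was 0.32, -0.19, 0.21 and -0.37 in LCN2, against 0.13, 0.18, 0.27 and -0.57 in GFP (log2). The rRNA genes of GFP replicate 4 did not follow, with a median deviation of 0.02, and its mt-Tc, mt-Tn and mt-Ty were the highest of the GFP samples.

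Markers of other fat and tissue cells also varied between these samples. The 7 markers of brown and beige fat cells, all detected, summed to 297, 14.5, 129 and 23.8 CPM in LCN2 gonadal samples, against 10.7, 59.0, 57.4 and 8.14 CPM in GFP samples. LCN2 replicate 1, highest for most mitochondrial genes, had the highest sum, and GFP replicate 4, lowest for most protein genes, had the lowest. That order did not hold throughout. GFP replicate 1, at 10.7 CPM, had 8.77% of its reads on the 37 genes. LCN2 replicate 2, at 14.5 CPM, had 7.35%, above the 6.51% of LCN2 replicate 4, at 23.8 CPM. Elovl3 was at 0 in 1 sample, and Ucp1, the uncoupling protein that defines brown fat, ranged from 0.0819 to 205 CPM. Markers of mesothelium summed to 70.5 to 178 CPM in LCN2 samples, against 155 to 404 CPM in GFP samples, and those of blood vessels to 790 to 931 CPM in LCN2, against 383 to 960 CPM in GFP. GFP replicate 4 had the highest level of both lists. Markers of hepatocytes summed to 2257, 2620, 1071 and 791 CPM in LCN2 samples, against 2099, 5180, 2939 and 1427 CPM in GFP samples. GFP replicate 2 was the highest for the hepatocyte list. The part of these cell types in the mitochondrial values was not tested.

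**Figure D3:**
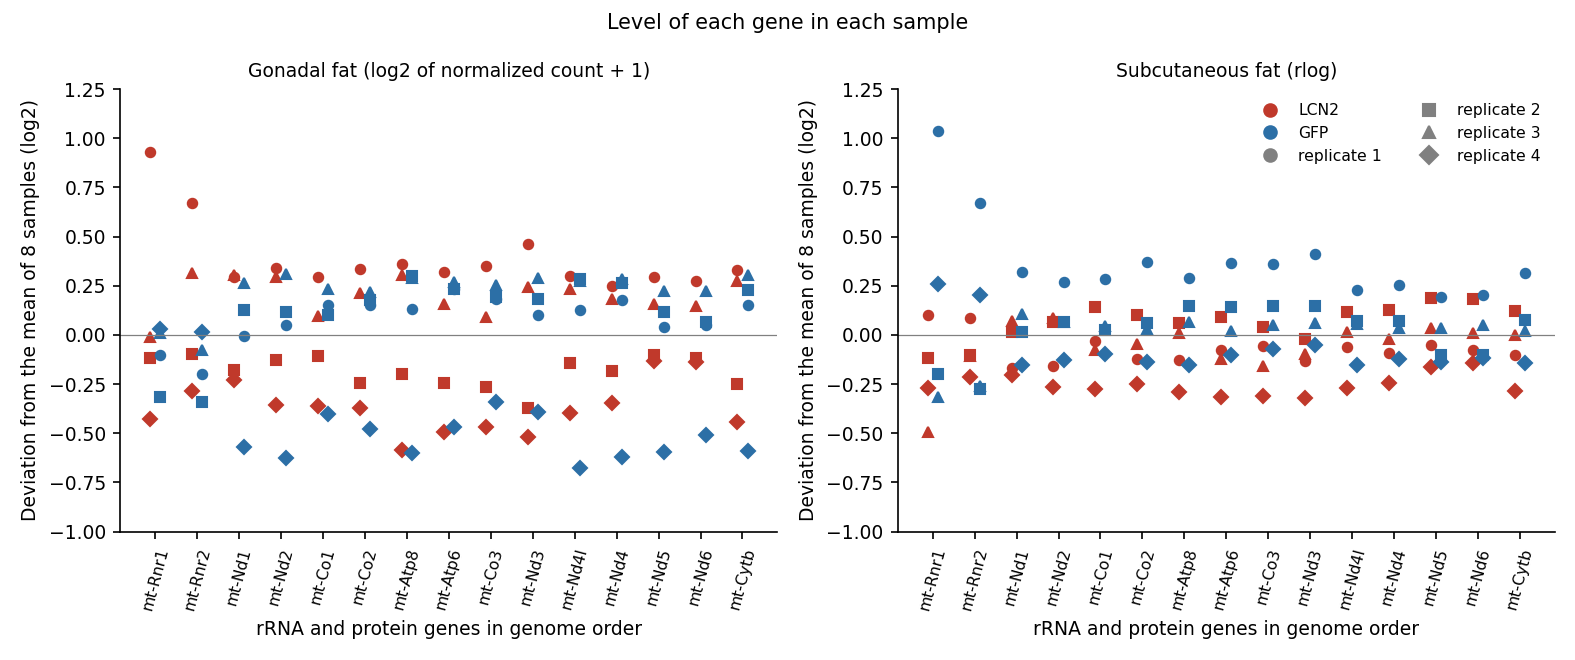
Deviation of each sample from the mean of 8 samples (y axis, log2) for the rRNA and protein genes in genome order (x axis), in gonadal fat (left, log2 of normalized count + 1) and subcutaneous fat (right, rlog). LCN2 samples are drawn left of GFP samples, with a symbol per replicate; in gonadal fat LCN2 replicate 1 is high and GFP replicate 4 low in most protein genes, and in subcutaneous fat GFP replicate 1 is highest in all 15 genes.

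In subcutaneous fat most differences were negative and none passed the test. A mean rlog of 3 was reached by 26 of the 36 genes listed, all protein and rRNA genes and 11 tRNA genes. None of the 26 passed an adjusted p of 0.05 with limma, and 0.0% of all 20302 genes did. At an unadjusted p under 0.05 there was 1 of the 26, against 14.0% of all genes. The groups overlapped for all 26, where 7.08% of all genes had groups that did not overlap. Differences were positive for 6 and negative for 20 of the 26 genes, against 49.8% and 50.2% of all genes.

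The 13 protein genes had a median rlog difference of -0.14, beside -0.00078 over all genes tested, with 12 negative and 1 positive. The values lay between -0.28 and 0.0049, limma's SE between 0.11 and 0.30, and limma adjusted p between 0.339 and 0.991. From each gene's own values the SE lay between 0.10 and 0.13. For mt-Co1 limma's SE was 0.30, against 0.12 from its own values. mt-Nd3, a small complex I subunit, had the most negative difference. Its rlog was 14.65, 14.76, 14.69 and 14.46 in LCN2 samples, against 15.19, 14.93, 14.84 and 14.73 in GFP samples. The LCN2 samples were mostly the lower ones, with an overlap between LCN2 replicate 2 and GFP replicate 4. The difference was -0.28 ± 0.12 (SE), with a 95% interval from -0.55 to -0.02, an unadjusted p of 0.0402 and a limma adjusted p of 0.339. Without GFP replicates 1 and 2, the libraries highest in lymph node markers, the median of the protein genes was -0.03. GFP replicate 1 was also the highest sample for all 13 protein genes. LCN2 replicate 4, which was next in lymph node markers and lowest for all 13, was kept. The part of lymph node tissue in this change was not tested.

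mt-Nd5 had rlog values of 17.40, 17.63, 17.48 and 17.28 in LCN2 subcutaneous samples, against 17.64, 17.34, 17.48 and 17.31 in GFP samples, a difference of 0.0049 ± 0.17. The groups covered almost the same range. mt-Nd6 likewise had 15.73, 15.99, 15.81 and 15.66 in LCN2, against 16.01, 15.70, 15.85 and 15.69 in GFP, a difference of -0.02 ± 0.12. mt-Co1 had 19.33, 19.51, 19.29 and 19.09 in LCN2, against 19.65, 19.39, 19.41 and 19.26 in GFP. mt-Atp8 had 13.58, 13.76, 13.72 and 13.41 in LCN2, against 14.00, 13.86, 13.77 and 13.55 in GFP. GFP replicate 1 was highest and LCN2 replicate 4 lowest for each of these genes.

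The differences of these and the remaining protein genes were -0.12 ± 0.30 for mt-Co1, -0.16 ± 0.18 for mt-Co2, -0.24 ± 0.18 for mt-Co3, -0.21 ± 0.21 for mt-Atp6 and -0.17 ± 0.11 for mt-Atp8. Those of complexes III and I were -0.13 ± 0.21 for mt-Cytb, -0.14 ± 0.16 for mt-Nd1, -0.14 ± 0.16 for mt-Nd2, -0.12 ± 0.21 for mt-Nd4 and -0.10 ± 0.12 for mt-Nd4l (SE, rlog scale).

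mt-Rnr1 had the largest subcutaneous difference of all 26 genes. Its rlog was 13.91, 13.69, 13.32 and 13.54 in LCN2, against 14.85, 13.61, 13.49 and 14.07 in GFP. mt-Rnr2 had 14.95, 14.76, 14.75 and 14.64 in LCN2, against 15.53, 14.58, 14.60 and 15.06 in GFP. For both rRNAs GFP replicates 1 and 4 were above all LCN2 samples, and GFP replicates 2 and 3 lay among the LCN2 samples for mt-Rnr1 and below them for mt-Rnr2. The differences were -0.39 ± 0.29 for mt-Rnr1 and -0.17 ± 0.21 for mt-Rnr2 (SE), with limma adjusted p of 0.531 and 0.713. Without GFP replicate 1 they were -0.11 and 0.03.

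Of the 11 subcutaneous tRNA genes tested, 5 had positive and 6 negative differences. mt-Tq, a glutamine tRNA gene, was the most negative at -0.28 ± 0.13, and mt-Tn the most positive at 0.12 ± 0.18 (SE). mt-Ts1 had 11.89, 12.03, 11.75 and 11.54 rlog in LCN2, against 12.16, 11.90, 11.89 and 11.75 in GFP, a difference of -0.12 ± 0.12. mt-Te had 11.57, 11.86, 11.72 and 11.50 in LCN2, against 11.86, 11.63, 11.75 and 11.61 in GFP, a difference of -0.05 ± 0.09. Values of both genes overlapped between the groups. The differences were 0.11 ± 0.17 for mt-Tc, 0.05 ± 0.18 for mt-Ty, 0.02 ± 0.05 for mt-Tm and 0.01 ± 0.08 for mt-Ta. They were -0.02 ± 0.06 for mt-Tg, -0.04 ± 0.10 for mt-Tl1 and -0.06 ± 0.09 for mt-Tp.

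In subcutaneous fat, too, single samples were high or low across the genes together. GFP replicate 1 was the highest of 8 for all 13 protein genes and both rRNA genes, and LCN2 replicate 4 the lowest for all 13 protein genes. GFP replicate 1 had the highest median rlog of lymph node markers (10.2), of brown and beige markers (8.66) and of muscle markers (5.22) among the 8 samples. Brown and beige markers had a median rlog of 8.10, 5.88, 6.72 and 7.12 in LCN2, against 8.66, 8.21, 7.38 and 8.52 in GFP, with all 7 listed. LCN2 replicate 1 lay above GFP replicate 3, so these groups overlapped as well. Hepatocyte markers had a median rlog of 5.60, 6.07, 5.58 and 5.04 in LCN2, against 6.91, 8.86, 4.98 and 4.92 in GFP. The part of these cell types in the mitochondrial values was not tested.

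**Figure D4:**
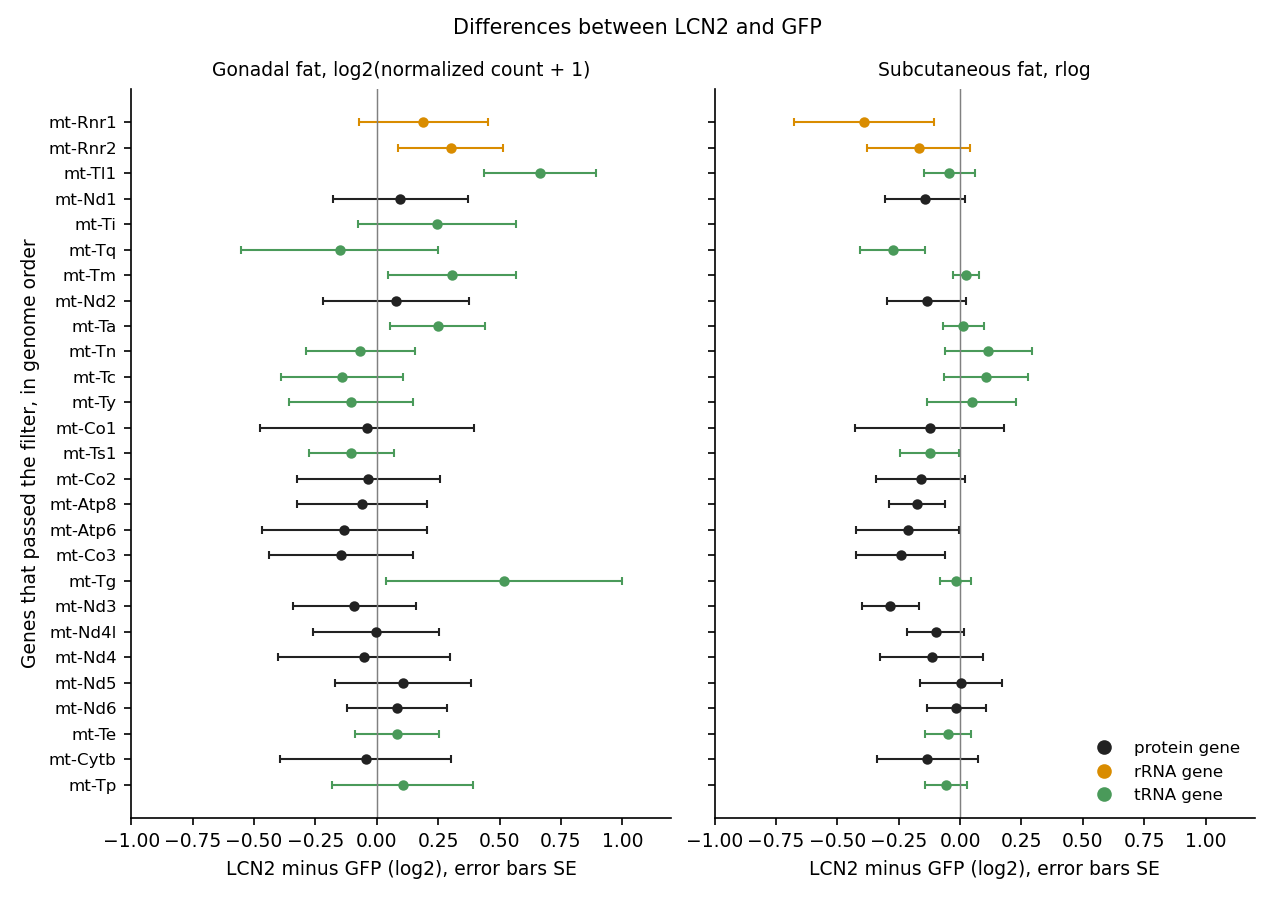
Difference LCN2 minus GFP (x axis, log2, points with SE bars) for each gene that passed the filter, in genome order from top to bottom, in gonadal fat (left, log2 of normalized count + 1) and subcutaneous fat (right, rlog). Protein, rRNA and tRNA genes have their own colours; most subcutaneous points lie left of 0, mt-Tl1 is the largest gonadal difference, and no gene passed an adjusted p of 0.05 in either depot.

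Placed side by side, 9 of the 13 protein genes were negative in both depots, 1 (mt-Nd5) was positive in both, and 3 (mt-Nd1, mt-Nd2 and mt-Nd6) were positive in gonadal and negative in subcutaneous fat. Both rRNA genes were positive in gonadal and negative in subcutaneous fat. Of the 11 tRNA genes tested in both depots, 2 were positive and 2 negative in both, and 7 had opposite signs. The tables were normalized separately, the labels do not say whether the same mice gave both depots, and the difference between depots was not tested.

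Reads were also counted for copies of the mitochondrial genome in the nucleus. Such copies are pieces of mitochondrial DNA that were inserted into chromosomes, and are annotated as pseudogenes. Among the gonadal genes, 16 such pseudogenes, aligned to 11 of the 37 genes at 90% identity or more over at least 50 bases, had counts. A cluster of 7 at chr1:24611535-24616197 holds, in one unbroken order, copies of mt-Co1, mt-Co2, mt-Atp6, mt-Co3, mt-Nd3, mt-Nd4l and mt-Nd4 at 99% identity or more. These 7 alone took 2.99 to 4.73% of all reads per library.

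In this cluster 4 of the 7 copies had nearly the same number of reads as their mitochondrial gene in every sample, and the other 3 had more or fewer. Gm28661 had 101% (SD 0.0383 percentage points over 8 samples) of the reads of mt-Co2, its identical partner over 681 bases. Gm28437 had 101% of the reads of mt-Co3, Gm28438 101% of those of mt-Nd3 and Gm10222 101% of those of mt-Nd4l. Gm10925 had more reads than its partner, 115% of those of mt-Atp6, with 114 to 115% in each sample. Gm28439, which covers 63.6% of mt-Nd4, had 59.9% of its reads. Gm29216, which covers 31.3% of mt-Co1, had 42.7%. The spread of these ratios between samples was at most 0.969 percentage points.

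Copies that differ in sequence had reads too. Gm13340, at chr2:22588103-22589647 on the minus strand, spans all of mt-Co1 with 37 differing bases in 1545 and a longest identical stretch of 148 bases. It had 36.2% (SD 0.175) of the reads of mt-Co1. Gm13341, its neighbour, had 35.8% of the reads of mt-Co2, and Gm13339 had 11.9% of those of mt-Nd2. The 80 aligned bases with the most differences, 5, given in capitals, are shown because reads there differ between the copy and its source.
mt-Co1, MT:5782-5861, plus strand: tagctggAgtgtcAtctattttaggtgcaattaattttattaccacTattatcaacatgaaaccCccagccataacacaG
Gm13340, chr2:22589114-22589193, minus strand: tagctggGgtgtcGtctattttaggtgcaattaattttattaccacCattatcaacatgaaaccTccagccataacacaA

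**Figure D5:**
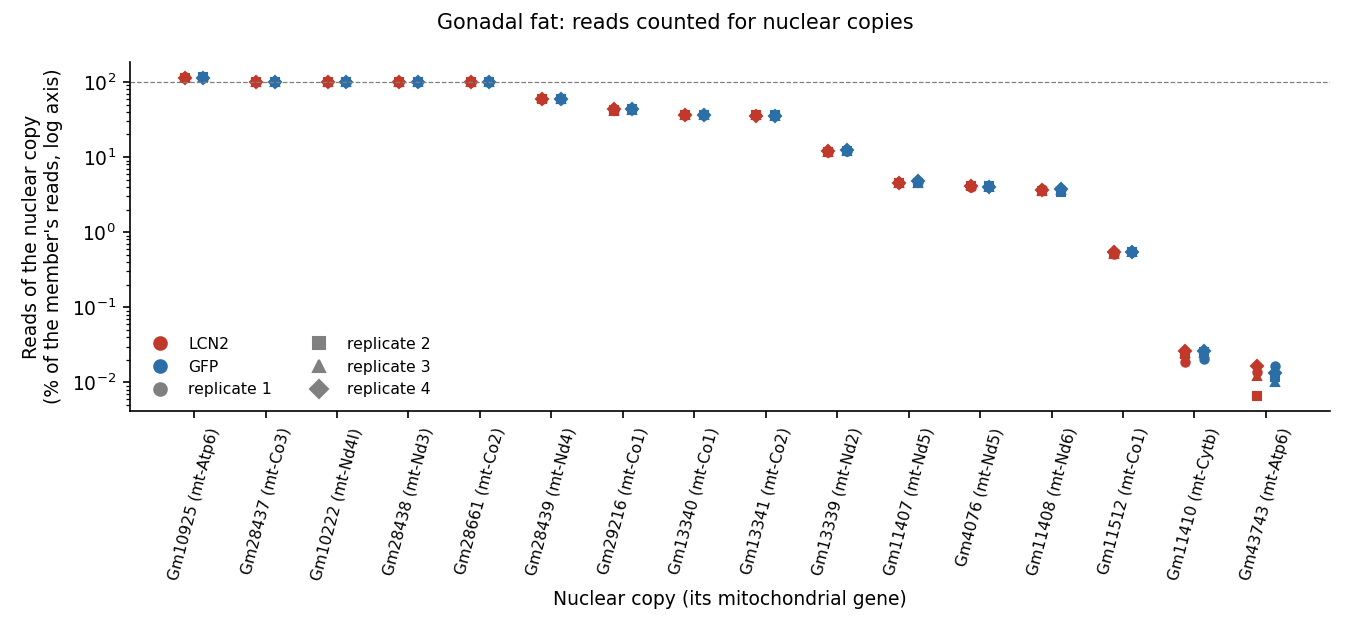
Reads counted for each of 16 nuclear copies as a percent of the reads of its mitochondrial gene in the same gonadal sample (y axis, log scale; dashed line at 100), with the mitochondrial gene in brackets (x axis). LCN2 samples are drawn left of GFP samples, with a symbol per replicate; 5 copies lie above 100% in every sample, and the samples of a copy lie almost on top of each other for all but the lowest copies.

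The copies on chromosome 4 had 4.51 to 4.74% (Gm11407, of mt-Nd5) and 3.38 to 3.75% (Gm11408, of mt-Nd6) of the reads of their genes, and Gm4076 on chromosome 13 had 4.11% of those of mt-Nd5. The other 3 copies had 0.533% or less. The difference of a copy had the sign of its gene's for all 16 in gonadal fat and for all but Gm11407 in subcutaneous fat. Where a copy held a near-constant percent of its gene's reads, this agreement follows from that constancy and is not a separate result. In the chromosome 1 cluster copy minus gene lay between -0.032 and 0.013 in gonadal fat, and over all 16 copies between -0.11 and 0.021. In subcutaneous fat it lay between -0.0038 and 0.0032 in the cluster and between -0.021 and 0.063 over all 16. Gm28437 differed by -0.15 in gonadal and -0.24 in subcutaneous fat, as mt-Co3 did, and Gm13340 by -0.03 and -0.12, where mt-Co1 differed by -0.04 and -0.12. None of the 16 copies passed the limma threshold in either depot, or edgeR's or DESeq2's in gonadal fat. At an unadjusted p under 0.05 there were 0 in gonadal fat with limma, edgeR and DESeq2, and 1 in subcutaneous fat with limma, where 14.8, 14.9 and 16.3% of all genes in gonadal and 14.0% in subcutaneous fat were. A read of identical sequence cannot be assigned to the mitochondrial or the nuclear copy from a count per gene. The levels of the 11 genes with an annotated copy are uncertain to that extent. Only annotated transcripts were searched, so the other genes may have copies as well. In the mitochondrial genome mt-Ts1 and mt-Atp8 lie between genes copied in the chromosome 1 cluster. mt-Tn, mt-Tc and mt-Ty lie between mt-Nd2 and mt-Co1, both copied on chromosome 2. Whether these genes were inserted too was not tested. Besides pseudogenes, a transcript of Cep295 that keeps an intron aligned to mt-Tl1 (93.5% identity over 62 bases, opposite strand) and to mt-Tn (91.5% over 71 bases). Cep295 averaged 665 normalized counts, and whether it shares reads with these tRNA genes was not tested. With the 16 copies added to the 37 genes, the share of gonadal reads was 10.4 to 16.1% in LCN2 samples and 10.9 to 14.5% in GFP samples, a difference of means of -0.407 percentage points. The 26 genes without an annotated pseudogene copy include mt-Tl1 and mt-Tn. Their share was 0.716 ± 0.146% in LCN2 and 0.660 ± 0.0521% in GFP (SD, n = 4 each). Whether reads were divided between genes and copies or counted for both is not known, and these shares depend on it.

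Nuclear genes that act with the mitochondrial genome were listed by function, 124 genes in 8 lists, and all were tested with limma in both depots. None passed an adjusted p of 0.05 with limma in either depot. At an unadjusted p under 0.05 there were 4 of 124 in gonadal and 9 of 124 in subcutaneous fat, against 14.8 and 14.0% of all genes. The gonadal counts with edgeR and DESeq2 cover 123 of the 124 genes. There edgeR called none, against 0.0358% of all genes, and DESeq2 called 1, Mtpap, against 4.19%. At an unadjusted p under 0.05 edgeR and DESeq2 had 6 each, against 14.9 and 16.3% of all genes. Of the 124 genes, in gonadal fat 55 were positive and 69 negative with a median of -0.02, beside 0.01 over all genes tested. In subcutaneous fat 34 were positive and 90 negative with a median of -0.06, beside -0.00078 over all genes tested.

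Among the 29 genes for mitochondrial RNA processing and stability, 17 were positive in gonadal fat, with a median of 0.04. Mtpap, the mitochondrial poly(A) polymerase, had 1158 ± 75.9 normalized counts in LCN2 and 938 ± 72.4 in GFP (SD, n = 4 each). Its groups did not overlap, and its difference of 0.31 ± 0.09 had a limma adjusted p of 0.185. Hsd17b10, part of the enzyme that trims the front ends of tRNAs, stood at -0.37 ± 0.17. In subcutaneous fat 10 of the 29 were positive, with Trub2 at 0.21 ± 0.08 and Ptcd2 at -0.16 ± 0.07.

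The 16 genes of mitochondrial DNA replication had a gonadal median of -0.05 with 6 positive. Dna2, a nuclease and helicase, was at 0.68 ± 0.23 and Mgme1, an exonuclease for mitochondrial DNA, at -0.31 ± 0.13, with limma adjusted p of 0.228 and 0.324. The subcutaneous median was -0.02 with 7 positive, Mpv17 at 0.15 ± 0.06 and Ssbp1, which coats single-stranded mitochondrial DNA, at -0.09 ± 0.05. The 10 genes of mitochondrial transcription had medians of -0.12 in gonadal and -0.07 in subcutaneous fat, with 3 positive in each. Mterf1b and Mterf1a, near-identical copies of a gene whose protein ends transcription and so uncertain where reads are shared, were lowest in p in both depots, at -0.41 ± 0.21 and -0.28 ± 0.17 in gonadal and -0.15 ± 0.08 and -0.17 ± 0.09 in subcutaneous fat.

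The 32 translation factors and tRNA synthetases had medians of -0.01 in both depots, with 13 positive in gonadal and 12 in subcutaneous fat. Qrsl1, a subunit of the enzyme that makes glutamine-loaded tRNA, had the smallest gonadal p at 0.37 ± 0.14 (limma adjusted p of 0.271), ahead of Mrrf, a ribosome recycling factor, at -0.14 ± 0.08. In subcutaneous fat these were Mars2 at -0.23 ± 0.09 and Vars2 at -0.12 ± 0.05, which load methionine and valine.

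Nuclear subunits of the same respiratory complexes were mostly negative in subcutaneous fat, as the mitochondrial ones were, and none passed the test. Negative differences were found for 7 of 7 core genes of complex I (median -0.15), 4 of 4 of complex III (-0.19), 10 of 11 of complex IV (-0.11) and 14 of 15 of complex V (-0.08), against 50.2% of all genes. Ndufs7, which carries an iron-sulphur cluster in complex I, was at -0.21 ± 0.07 and Ndufv2 at -0.20 ± 0.09. Uqcrfs1, the iron-sulphur protein of complex III, was at -0.20 ± 0.08 and Uqcrc2 at -0.23 ± 0.10. Cox5a was at -0.23 ± 0.12, Cox7b at -0.16 ± 0.10, Atp5g2 at -0.19 ± 0.05 and Atp5j2 at -0.12 ± 0.07. The smallest limma adjusted p of these genes was 0.308. GFP replicates 1 and 2, highest in lymph node markers, were kept for these values. Brown and beige markers also had a lower median rlog in LCN2, 6.95 ± 0.922 against 8.19 ± 0.572 in GFP (SD, n = 4 each), with overlap. The part of these tissues in the signs was not tested. Genes measured in the same libraries are not independent of each other.

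In gonadal fat the same lists had medians of -0.10 for complex I, 0.02 for complex III, 0.0033 for complex IV and -0.04 for complex V. Cox7a1, a complex IV subunit of muscle and brown fat, had the largest value at 1.13 ± 0.51 (limma adjusted p of 0.350), with 149 ± 91.4 normalized counts in LCN2 and 63.4 ± 29.9 in GFP (SD, n = 4 each). Muscle markers were highest in LCN2 replicate 4 and brown markers in LCN2 replicate 1, as given above, and their part in this value was not tested. The remaining genes lowest in p were Ndufs7 at -0.22 ± 0.19, Ndufs3 at -0.10 ± 0.18, Uqcrc2 at -0.13 ± 0.27 and Uqcrc1 at 0.10 ± 0.23. Cox6a1 stood at 0.10 ± 0.16, Atp5g2 at -0.23 ± 0.12 and Atp5g1 at -0.07 ± 0.10. The nuclear complex V genes took 0.292 ± 0.0198% of gonadal reads in LCN2 and 0.297 ± 0.0578% in GFP, and those of complex IV 0.125 ± 0.00816% in LCN2 and 0.126 ± 0.0177% in GFP.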

How the data were processed

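Frozen gonadal and subcutaneous fat gave RNA with an integrity number over 8.2, from which strand-marking poly(A) libraries were prepared, per the labels. The submitters' processing notes name HISAT2, DESeq2 and GRCm38 (mm10). Software versions, counter, strand setting and gene annotation were not given in the sources used here. The deposited gonadal signal per gene is a count that the authors had divided by 1 size factor per sample. Division by the worth of 1 read gave whole numbers for 100% of values (relative tolerance 1e-06). The deposited subcutaneous values are rlog, on a log2 scale. Each table was normalized on its own, so tests stayed within a table.

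Samples were grouped by the labels. Members and gene lists were chosen with earlier results of these data known. Limma 3.58.1 (R 4.3.3) with an intensity trend was fitted to log2(normalized count + 1) for gonadal genes with a mean of at least 10, and to rlog values of subcutaneous genes with a mean of at least 3. P-values were adjusted over all genes tested (Benjamini-Hochberg, threshold 0.05), and the fits were tested on simulated data. Sums and medians over genes got no test. Both scales understate fold changes of low genes. edgeR 4.0.16 and DESeq2 1.42.0 were run on recovered reads as alternatives, beside other scalings, filters, pseudocounts, a block and omission of samples. Per-sample values are given for the rRNA genes, the protein genes highest and lowest per length, mt-Nd6, those with the most positive and negative difference, and the highest tRNA genes. mt-Tl1 is given in full as well, chosen after its values were seen. From each nuclear list the pair of genes with the smallest p is named. Transcript sequences and coordinates come from GENCODE M21 (GRCm38). Of the gene IDs, 99.2% matched a symbol. The closest libraries of 1 group differed by a mean chi-square of 45.7 per gene (gonadal) or an rlog SD of 0.185 (subcutaneous), so none was counted as a repeat.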

Additional observations from a re-analysis of the deposited data

Results flagged for a closer look

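Of 126 groups of 4 samples examined, 11 had a sample far from the rest by Dixon's test, where chance gives about 5%. In gonadal fat 7 of these concern GFP replicate 4. Its normalized counts were 151225 for mt-Co2 (other GFP samples 234639 to 245635), 232404 for mt-Atp6 (378362 to 387002), 182977 for mt-Co3 (263336 to 276737) and 242047 for mt-Nd4 (421513 to 453344). It was low in the share of reads from all 37 genes, at 6.74% against 8.67 to 9.01%, and from the protein genes, at 6.53% against 8.53 to 8.84%. It was high in rRNA reads per 100 protein gene reads, at 2.68 against 1.32 to 1.51. The other 4 concern LCN2 replicate 1, which was high in mt-Tg (76.4 normalized counts, against 14.1 to 22.7 in the other LCN2 samples), mt-Tp (72.0 against 35.3 to 39.7) and the tRNA share of reads (0.0400% against 0.0272 to 0.0291%). Its rRNA reads per 100 protein gene reads were 2.55, against 1.91 to 1.96 in the other LCN2 samples. These values share libraries and overlapping sums, so they are not independent of each other.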

How the results depend on the processing

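No mitochondrial gene passed the threshold under any of 21 gonadal and 15 subcutaneous alternatives, with smallest adjusted p of 0.119 and 0.102. The gonadal protein median ranged from -0.33 to 0.16 (-0.23 to 0.10 with 1 sample left out), the subcutaneous one from -0.20 to -0.03, and the difference in share of reads from -1.30 to 0.507 percentage points. Those signs are therefore not settled in gonadal fat. Of the members tested, 5 of 27 gonadal and 17 of 26 subcutaneous genes kept their sign throughout, and the cause of the changes was not tested. Chosen after seeing the data were the omission of LCN2 replicate 1 with GFP replicate 4 and the total without the copies' reads. So was the share without genes that have an annotated copy. Over all genes, limma called 20 in gonadal fat, edgeR 7, DESeq2 818, limma with array weights 71, and limma with 1 sample left out 1 to 66.

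The replicate numbers are not known to pair the samples. Same-numbered samples had correlations of deviations between -0.36 and 0.42 in gonadal and -0.36 and 0.34 in subcutaneous fat, and 3 of 8 gonadal and 2 of 8 subcutaneous samples correlated best with their own number. With a replicate block 0 mitochondrial genes were called in either depot, and of all genes 0 in gonadal fat (2636 at an unadjusted p under 0.05) and 0 in subcutaneous fat (3200).

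Changed signs in gonadal fat were as follows, as log2 differences. mt-Tq was 0.0028 with edgeR and 0.0085 with DESeq2. Array weights gave -0.057 for mt-Nd1, -0.092 for mt-Nd2, -0.031 for mt-Nd5, -0.044 for mt-Nd6 and -0.047 for mt-Te. Without LCN2 replicate 4 and GFP replicate 2 values were 0.10 for mt-Co1, 0.027 for mt-Ts1, 0.14 for mt-Co2, 0.21 for mt-Atp8, 0.067 for mt-Atp6, 0.025 for mt-Co3, 0.11 for mt-Nd3, 0.13 for mt-Nd4, 0.16 for mt-Cytb and 0.22 for mt-Nd4l. Without LCN2 replicate 1 and GFP replicate 4 they were -0.048 for mt-Rnr1, -0.16 for mt-Nd1, -0.22 for mt-Nd2, -0.071 for mt-Tg, -0.15 for mt-Nd5, -0.15 for mt-Nd6, -0.14 for mt-Te and -0.22 for mt-Tp. With 1 sample left out at a time the ranges were -0.090 to 0.36 for mt-Rnr1, -0.080 to 0.20 for mt-Nd1, -0.54 to 0.099 for mt-Tq, -0.12 to 0.21 for mt-Nd2, -0.26 to 0.11 for mt-Tn, -0.34 to 0.048 for mt-Tc, -0.34 to 0.049 for mt-Ty, -0.18 to 0.074 for mt-Co1, -0.24 to 0.016 for mt-Ts1, -0.20 to 0.084 for mt-Co2, -0.27 to 0.12 for mt-Atp8, -0.31 to 0.011 for mt-Atp6, -0.26 to 0.065 for mt-Nd3, -0.27 to 0.056 for mt-Nd4, -0.072 to 0.20 for mt-Nd5, -0.072 to 0.17 for mt-Nd6, -0.069 to 0.19 for mt-Te, -0.25 to 0.095 for mt-Cytb, -0.12 to 0.28 for mt-Tp and -0.23 to 0.13 for mt-Nd4l.

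In subcutaneous fat, centring samples on their median gave 0.0077 for mt-Tg and 0.010 for mt-Nd6, and array weights 0.026 for mt-Nd6. Without GFP replicates 1 and 2 values were 0.050 for mt-Tl1, -0.035 for mt-Ty, 0.032 for mt-Tg and 0.026 for mt-Nd6. With 1 sample left out the ranges were -0.29 to 0.026 for mt-Rnr2, -0.11 to 0.051 for mt-Tl1, -0.0072 to 0.045 for mt-Tm, -0.031 to 0.056 for mt-Ta, -0.073 to 0.17 for mt-Ty, -0.068 to 0.010 for mt-Tg, -0.057 to 0.070 for mt-Nd5, -0.078 to 0.050 for mt-Nd6 and -0.12 to 0.0059 for mt-Te.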
